A study of Mus musculus with 6 samples.

Results

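Large-diameter sensory neurons of the dorsal root ganglia (DRG) were followed here through 8 marker genes, Pvalb, Calb1, Calb2, Ldhb, Spp1, Cntnap2, Esrrg and Vsnl1, chosen by name from the 54242 gene symbols of the series. DRG house the cell bodies of the neurons that carry touch, position, pain and temperature to the spinal cord. They were taken at L4-6 from male C57bl/6 mice of 8 to 10 weeks that were either fed ad libitum (3 libraries, called fed) or kept on intermittent fasting for 10 days (3 libraries, called fasted), and fasted against fed is the only comparison of the design. The tissue was digested and its neurons enriched on a BSA gradient, so the libraries hold RNA of all sensory neuron types and of whatever other cells came along. The labels leave unsaid if replicates are single or pooled mice, so p-values speak only of how far these libraries scatter, a scatter that may be technical.

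The markers label the neurons of touch and of muscle sense. Proprioceptors, which report muscle length and tension, and low-threshold mechanoreceptors, which report touch and vibration, have large cell bodies and thick myelinated axons, and they fire at high rates. Their usual markers are calcium-binding proteins that buffer or sense the calcium entering with each spike, a lactate dehydrogenase subunit typical of oxidative tissue, a protein of the myelinated axon's potassium channel clusters, a nuclear receptor that acts on oxidative metabolism and a secreted phosphoprotein. Several of these genes are also used outside neurons: Pvalb in fast muscle fibres, and Spp1 in bone and in macrophages.

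The values are TPM, the share of transcripts per 1000000 in each library. TPM are corrected for transcript length, so levels of different genes can be set side by side, but they keep no sequencing depth and no counting interval can be given. All 8 markers were above a mean of 1 TPM and stood among the 15097 genes tested. The labelled tissue was checked on neuronal genes, all of which were present. Tubb3, a neuronal tubulin, averaged 2797 TPM, the large-fibre neurofilament gene Nefh 1549 TPM, the proprioceptor receptor gene Ntrk3 41.1 TPM, the proprioceptor transcription factor genes Runx3 and Etv1 10.4 and 82.7 TPM, and Slc17a7, the vesicular glutamate transporter of large neurons, 204.8 TPM.

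One library stood apart. In fed replicate 2 the summed level of 18 skeletal muscle genes was 4558 TPM, against 104 to 510 TPM in the other 5 libraries, and the summed level of 16 pan-neuronal genes was the lowest, at 15683 TPM against 16741 to 17725 TPM. Fasted replicate 3 had the highest sum of 5 erythroid genes, at 3277 TPM against 1284 to 2347 TPM. Both libraries recur below, and values that move by more than 1.5 times or change direction without one of them are given both ways for the markers and for the medians of the gene groups.

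Pvalb is described first, because the deposited table splits it into 2 transcripts that behaved differently. Pvalb encodes parvalbumin, a calcium buffer that marks proprioceptors in the ganglion and is also abundant in fast muscle fibres. The gene lies on chromosome 15, 78191114 to 78206400, on the minus strand (GRCm38, GENCODE M21). Transcript Pvalb-202 starts at 78206400 and Pvalb-201 starts 2163 bases downstream, at 78204237. Pvalb-201 has 4 exons and 977 bases, and Pvalb-202 has 5 exons and 953 bases. They share 889 exonic bases and the same annotated coding sequence. Only 88 bases of Pvalb-201 and 64 bases of Pvalb-202 tell them apart, at the 5′ end apart from the last few bases of Pvalb-201, so the split of the gene's TPM between them rests on few positions.

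**Figure D1:**
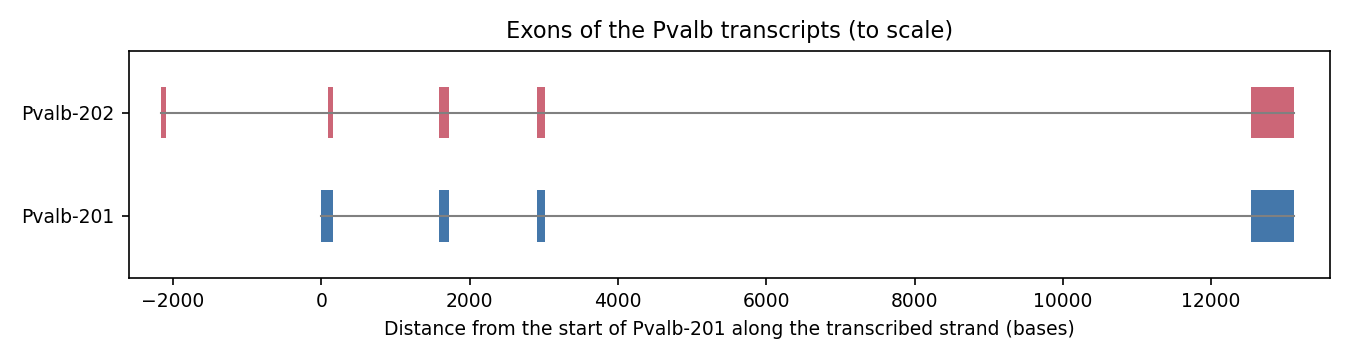
Exons of Pvalb-201 (blue) and Pvalb-202 (red) drawn to scale, with distance in bases from the start of Pvalb-201 along the transcribed strand on the x axis. The first exon of Pvalb-202 lies 2163 bases upstream, and the first exon of Pvalb-201 contains the second of Pvalb-202.

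Each transcript has its own start region, and the 250 bases before each start are printed here because the transcripts are compared by library below. The sequences are from RefSeq on GRCm38.p6, written 5′ to 3′ on the transcribed strand, and end at the base before the start. Capitals mark matches to the MEF2 motif or to the E-box CANNTG, searched on both strands.
Pvalb-202 start region, chr15:78206401-78206650: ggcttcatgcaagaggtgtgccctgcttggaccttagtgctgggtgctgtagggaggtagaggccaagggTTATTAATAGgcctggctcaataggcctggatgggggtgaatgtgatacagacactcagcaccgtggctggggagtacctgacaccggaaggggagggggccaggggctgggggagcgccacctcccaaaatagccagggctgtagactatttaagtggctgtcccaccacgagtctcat
Pvalb-201 start region, chr15:78204238-78204487: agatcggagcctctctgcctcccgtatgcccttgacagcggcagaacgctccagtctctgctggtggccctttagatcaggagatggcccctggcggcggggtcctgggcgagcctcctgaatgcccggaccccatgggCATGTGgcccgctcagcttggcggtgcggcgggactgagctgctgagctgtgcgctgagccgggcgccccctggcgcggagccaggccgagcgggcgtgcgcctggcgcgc
The start region of Pvalb-202 held 1 MEF2 motif match, which begins 180 bases before the start, and no E-box, while that of Pvalb-201 held 1 E-box, 111 bases before the start, and no MEF2 motif match. MEF2 motif matches were found in 2.9% of the 32536 promoter windows of this length and E-boxes in 66.2%. Neither region held a CArG box (1.5% of windows), TATAAA (12.3%), GGGCGG (33.0%) or AGGTCA (14.0%) on either strand, so no matches overlapped. GC content was 58.4% before Pvalb-202, with 4 CpG dinucleotides, and 71.6% before Pvalb-201, with 23, against medians of 52.4% and 6 over all windows. Among the 13 windows of the markers, that before the Esrrg start at 187609006 also held 1 MEF2 motif match.

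Pvalb-202 was at 84.0, 460.6 and 90.1 TPM in fed and at 25.7, 74.0 and 81.2 TPM in fasted libraries, each in the order of replicates 1, 2 and 3 that is kept throughout. The sum of the 18 muscle genes was 370, 4558 and 510 TPM in the same fed libraries and 104, 350 and 417 TPM in the fasted ones. The library with the most muscle RNA, fed replicate 2, thus had the most Pvalb-202, at 5.11 times the next library, and the library with the least muscle RNA, fasted replicate 1, had the least.

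Pvalb-201 did not share this pattern. It was at 131.0, 82.2 and 140.2 TPM in fed and at 175.6, 123.4 and 153.7 TPM in fasted libraries, lowest where Pvalb-202 was highest and highest where Pvalb-202 was lowest. As a share of the gene, Pvalb-202 made up 39.1%, 84.9% and 39.1% of Pvalb TPM in fed and 12.7%, 37.5% and 34.6% in fasted libraries. The fasted shares, 28.3% ± 13.5, all lay below the fed ones, 54.3% ± 26.4 (SD, n = 3 each; exact permutation test, two-sided, p = 0.1, the smallest that 3 against 3 libraries can give). Without fed replicate 2 the difference of the means, fasted minus fed, was -10.8 percentage points, and without fasted replicate 1 it was -18.3. What part muscle RNA has in these shares was not tested beyond these values.

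**Figure D2:**
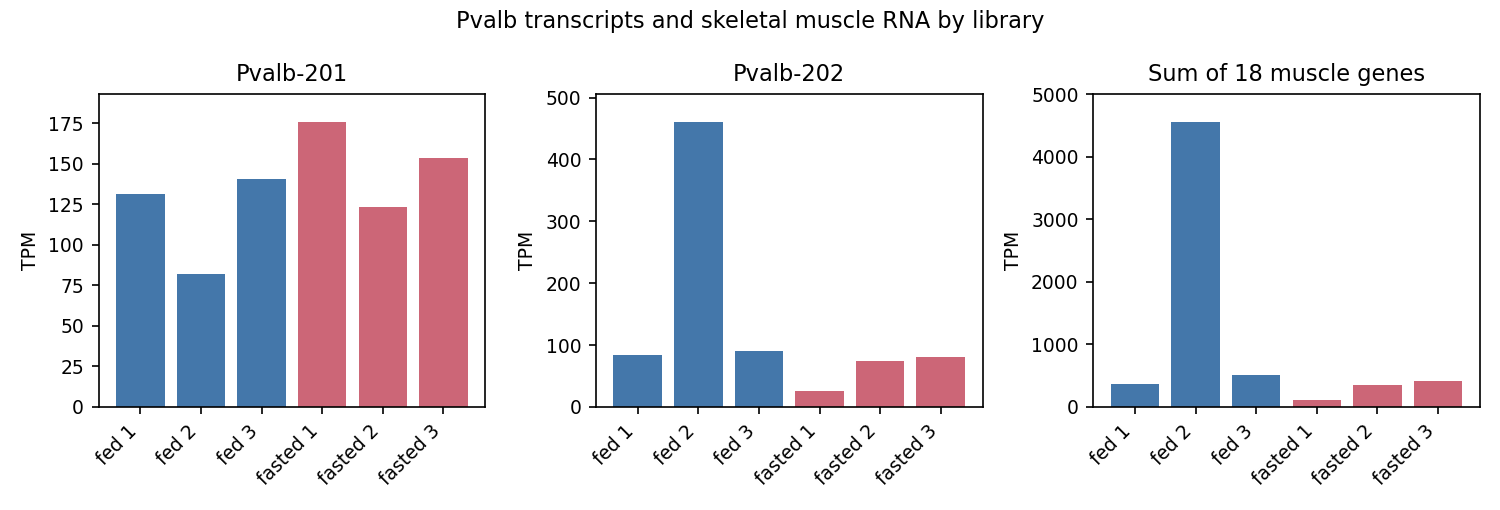
TPM (y axes, starting at 0) of Pvalb-201, of Pvalb-202 and of 18 summed skeletal muscle genes in the 3 fed (blue) and 3 fasted (red) libraries. Fed replicate 2 has the highest bar for Pvalb-202 (460.6 TPM) and for muscle genes (4558 TPM) and the lowest for Pvalb-201 (82.2 TPM).

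Across the diets neither Pvalb transcript passed. Pvalb-201 had a log2 fold change of 0.38 (95% interval -0.18 to 0.93; limma over 33197 transcripts, adjusted p = 0.72), and 0.14 without fed replicate 2. Pvalb-202 had a log2 fold change of -1.48 (-3.34 to 0.38; limma, adjusted p = 0.69), and -0.68 without fed replicate 2. All fold changes here are fasted against fed on the log2(TPM + 1) scale, which understates changes of low values. The fasted values of Pvalb-202 all lay below the fed ones, as they did for 4.98% of tested transcripts.

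Summed over both transcripts, as the gene is usually read, Pvalb was at 214.9, 542.9 and 230.3 TPM in fed and at 201.3, 197.4 and 234.9 TPM in fasted libraries. The groups overlapped, and only fed replicate 2 lay away from the rest. The log2 fold change was -0.51 (95% interval -1.26 to 0.25; limma over all genes, adjusted p = 0.57) and -0.08 without fed replicate 2. Pvalb was the only marker with a lower mean in fasted libraries.

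The genes most like Pvalb across the 6 libraries on log2(TPM + 1) were Hrc, Hspb6 and Ppp1r27, with Pearson r of 0.998, 0.997 and 0.996. Hrc encodes a calcium-binding protein of the sarcoplasmic reticulum and Hspb6 a small heat shock protein abundant in muscle. These are descriptions over 6 points, of which fed replicate 2 lies far from the others. Without it r was 0.95, 0.91 and 0.88. Over all tested genes the median r with the third most alike of 15096 other genes was 0.986, so high values are common. How many genes reach the 0.996 of Pvalb was not computed. Hrc and Ppp1r27 averaged only 2.37 and 1.08 TPM.

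The other calcium-binding markers are Calb1, Calb2 and Vsnl1. Calb1 encodes calbindin, a calcium buffer of subsets of large mechanoreceptors, and lies on chromosome 4, 15881264 to 15908064. It was at 36.3, 28.5 and 38.8 TPM in fed and at 41.9, 39.0 and 47.6 TPM in fasted libraries. Every fasted value lay above every fed value, though the nearest pair, 38.8 and 39.0 TPM, differed little. The log2 fold change was 0.31 (95% interval 0.03 to 0.59; limma, adjusted p = 0.50), so Calb1 did not pass once adjusted over all genes. Without fed replicate 2, the lowest library, it was 0.18.

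The transcripts of Calb1 differed in this respect. Calb1-201, the coding transcript of 11 exons, was at 36.3, 28.5 and 38.8 TPM in fed and at 37.6, 36.3 and 38.4 TPM in fasted libraries, which overlap. Its log2 fold change was 0.13 (95% interval -0.15 to 0.40; limma, adjusted p = 0.80) and -0.0028 without fed replicate 2. Calb1-202 is annotated as a retained-intron transcript of 701 bases without a coding sequence, starting 2 bases from Calb1-201. It was listed at 0 in all 3 fed libraries and at 4.30, 2.57 and 9.11 TPM in fasted replicates 1, 2 and 3 (limma, adjusted p = 0.42). A listed 0 can be a failed estimate, and no fold change is given against it. Calb1-202 was tested only because its fasted values brought the mean above 1 TPM, so its direction was fixed by that filter. Of all tested transcripts, 0.0723% were listed at 0 in every fed library and above 0 in every fasted one, and 0.0572% the other way round. The share of Calb1 TPM from Calb1-201 was 100% in each fed library and 89.7%, 93.1% and 80.7% in the fasted ones (exact permutation test, two-sided, p = 0.1, the smallest possible). This share mirrors the values of Calb1-202 and adds nothing to them.

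Calb2 encodes calretinin, a buffer related to calbindin and found in a small set of large neurons, and lies on chromosome 8, 110137502 to 110168210. It was at 27.9, 23.3 and 25.4 TPM in fed and at 29.3, 24.1 and 36.9 TPM in fasted libraries. The groups overlapped, with the highest value in fasted replicate 3. The log2 fold change was 0.21 (95% interval -0.12 to 0.55; limma, adjusted p = 0.58) and 0.06 without fasted replicate 3. Nearly all of it, 99.8%, was the transcript Calb2-201.

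Vsnl1 encodes visinin-like protein, a neuronal calcium sensor that moves to membranes when calcium rises, and lies on chromosome 12, 11325242 to 11436613. It was at 185.4, 156.7 and 193.4 TPM in fed and at 199.6, 189.1 and 209.3 TPM in fasted libraries. The groups overlapped through fed replicate 3 and fasted replicate 2. The log2 fold change was 0.16 (95% interval -0.02 to 0.35; limma, adjusted p = 0.52), and 0.07 without fed replicate 2. Its main transcript, Vsnl1-201, was at 175.6, 149.2 and 166.8 TPM in fed and at 187.5, 186.0 and 195.1 TPM in fasted libraries, with no overlap (9.38% of tested transcripts were higher without overlap). Its log2 fold change was 0.21 (95% interval 0.06 to 0.37; limma, adjusted p = 0.67). The minor transcript Vsnl1-202 ran from 3.05 to 26.6 TPM with no order by diet.

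Around these markers, other calcium genes did not pass either. Of 23 calcium sensors and buffers 21 were tested, 18 higher and 3 lower in fasted libraries, with 0 passing and 1 at p under 0.05 without adjustment (limma). Their median log2 fold change was 0.08, beside 0.03 for all tested genes, of which 62.5% were higher, and 0.04 without fed replicate 2, beside 0.02. Calm2, a calmodulin gene and the most abundant, was at 2342 ± 108.7 against 2412 ± 87.0 TPM (fed against fasted, SD, n = 3 each). The potassium channel regulator gene Kcnip3 was at 247.7 ± 20.0 against 274.6 ± 6.58 TPM and Hpca, a neuronal sensor gene, at 44.8 ± 4.15 against 49.6 ± 1.42 TPM. Of 11 genes of calcium extrusion and uptake 10 were higher and 1 lower, with 0 passing and 3 at p under 0.05 without adjustment (median 0.12). The plasma membrane calcium pump gene Atp2b4 was at 27.1, 24.6 and 25.9 TPM in fed and at 29.5, 34.1 and 30.2 TPM in fasted libraries (log2 fold change 0.26; limma, adjusted p = 0.42), and Atp2b1 at 142.9 ± 4.45 against 158.0 ± 7.004 TPM. Atp2a2, the pump of the endoplasmic reticulum and the most abundant of the group, was at 205.4 ± 11.1 against 215.0 ± 8.01 TPM (SD, n = 3 each).

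Ldhb encodes the lactate dehydrogenase subunit that is typical of heart and other oxidative tissue, and lies on chromosome 6, 142490249 to 142507957. It was the most abundant marker, at 535.2, 493.5 and 547.2 TPM in fed and at 589.1, 551.9 and 613.2 TPM in fasted libraries. All fasted values were above all fed ones, the nearest being 547.2 and 551.9 TPM. The log2 fold change was 0.15 (95% interval 0.02 to 0.29; limma, adjusted p = 0.48). A pseudogene copy, Ldhb-ps, was listed at 0.051 to 0.548 TPM.

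The transcripts of Ldhb were less even than the gene. ENSMUST00000239397.1 was at 399.6, 316.1 and 318.4 TPM in fed and at 363.3, 326.0 and 432.4 TPM in fasted libraries. ENSMUST00000239395.1 was at 127.7, 164.8 and 219.5 TPM in fed and at 215.0, 217.6 and 167.8 TPM in fasted libraries. Neither is in GENCODE M21, so no structure is given, and both overlapped between the diets. They made up 64.7% and 33.4% of Ldhb TPM. Fed replicate 1 and fasted replicate 3 had the highest values of the former and were among the lower libraries for the latter.

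Ldha, the subunit typical of glycolytic tissue, was at 604.9, 615.3 and 545.4 TPM in fed and at 569.9, 586.2 and 570.1 TPM in fasted libraries. Ldhb made up 46.9%, 44.5% and 50.1% of Ldha plus Ldhb in fed and 50.8%, 48.5% and 51.8% in fasted libraries, which overlap (exact permutation test, two-sided, p = 0.2). Of 15 genes of lactate and pyruvate handling 14 were tested, 7 higher and 7 lower, with 0 passing and 0 at p under 0.05 without adjustment (limma; median 0.0002, and 0.03 without fed replicate 2 and -0.02 without fasted replicate 3). The pyruvate dehydrogenase gene Pdhb was at 286.0 ± 10.9 against 307.1 ± 12.3 TPM and the mitochondrial pyruvate carrier gene Mpc2 at 173.1 ± 9.64 against 153.4 ± 20.1 TPM (SD, n = 3 each).

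Esrrg encodes an orphan nuclear receptor that acts on genes of oxidative metabolism, and lies on chromosome 1, 187608791 to 188214885. It was the least abundant marker, at 19.1, 16.3 and 21.2 TPM in fed and at 20.6, 18.4 and 21.8 TPM in fasted libraries. The groups overlapped and the log2 fold change was 0.11 (95% interval -0.13 to 0.34; limma, adjusted p = 0.70), or 0.0098 without fed replicate 2 and 0.05 without fasted replicate 3. Its transcripts start far apart: Esrrg-201, at 187997827, averaged 11.8 TPM over the 6 libraries and Esrrg-203, at 187609029, averaged 7.38 TPM. Esrrg-201 made up 61.9%, 59.9% and 55.9% of the gene in fed and 66.1%, 56.2% and 60.4% in fasted libraries (exact permutation test, two-sided, p = 0.6). The related receptors Esrra and Esrrb averaged 52.1 and 3.51 TPM. Of 11 genes of these receptors, their coactivators and metabolic targets, 9 were higher and 2 lower, with 0 passing and 1 at p under 0.05 without adjustment (limma; median 0.08). That gene was Idh3a, of the citric acid cycle, at 155.4 ± 3.06 against 169.5 ± 0.77 TPM (SD, n = 3 each; limma, adjusted p = 0.42). Cs, citrate synthase, was the most abundant, at 220.6 ± 9.89 against 233.6 ± 4.03 TPM. Without fasted replicate 3 the median of the group was 0.04.

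Cntnap2 encodes Caspr2, which holds Kv1 potassium channels beside the nodes of myelinated axons, and lies on chromosome 6, 45059357 to 47304213. It was at 113.6, 107.5 and 122.1 TPM in fed and at 138.0, 112.9 and 129.1 TPM in fasted libraries. The groups overlapped, and the log2 fold change was 0.14 (95% interval -0.04 to 0.33; limma, adjusted p = 0.53), or 0.08 without fasted replicate 1, which held the highest value.

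Most Cntnap2 TPM was assigned to shorter transcripts at the 3′ end of the gene. Cntnap2-202, the full-length transcript of 24 exons and 9827 bases that starts at 45060061, averaged 29.7 TPM, which was 24.6% of the gene. Cntnap2-201, of 4 exons and 1540 bases, starts at 47244453 and averaged 68.4 TPM, 56.8% of the gene. Cntnap2-205, which starts at 47244387, has 4 exons and 6279 bases and averaged 14.8 TPM, 12.3% of the gene. The summed Cntnap2 TPM is therefore mainly that assigned to transcripts annotated with only the last exons. These lie within the span of Cntnap2-202, so the split is an estimate, and its accuracy was not tested. The order was the same in every library, with Cntnap2-201 from 59.2 to 76.3 TPM, Cntnap2-202 from 27.0 to 33.5 TPM and Cntnap2-205 from 12.5 to 17.3 TPM.

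None of these Cntnap2 transcripts passed. Cntnap2-202 was at 28.8 ± 1.97 against 30.6 ± 2.67 TPM (SD, n = 3 in each group; fold change 0.08 on the log2 scale, limma, adjusted p = 0.82) and Cntnap2-201 at 65.6 ± 5.51 against 71.2 ± 5.68 TPM (0.12, limma, adjusted p = 0.76). Cntnap2-205 was at 12.6, 12.5 and 14.5 TPM in fed and at 17.3, 14.5 and 17.3 TPM in fasted libraries (log2 fold change 0.29, 95% interval 0.05 to 0.52; limma, adjusted p = 0.67). Fed replicate 3 and fasted replicate 2, both at 14.5 TPM, overlapped.

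The partners of Caspr2 were examined as a group. Kcna1 and Kcna2, the Kv1 subunits it holds, averaged 139.8 and 114.0 TPM over the 6 libraries, with log2 fold changes of -0.0041 and 0.08. Of 20 genes of the juxtaparanode and paranode 15 were higher and 5 lower, with 0 passing and 2 at p under 0.05 without adjustment (limma; median 0.08). These were Cntn2, the adhesion partner of Caspr2, at 80.7 ± 4.10 against 86.8 ± 0.53 TPM, and Dlg4, a scaffold gene, at 110.5 ± 3.26 against 118.1 ± 3.51 TPM (SD, n = 3 each). Kcnab2, a Kv1 channel subunit gene and the most abundant, was at 876.4 ± 50.9 against 929.0 ± 20.3 TPM. The median of the group was 0.04 without fed replicate 2 and also 0.04 without fasted replicate 3, and the 2 genes under 0.05 became 0 and 1.

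Spp1 encodes osteopontin, a secreted phosphoprotein that in the ganglion marks proprioceptors, and lies on chromosome 5, 104435118 to 104441050. It was at 243.2, 211.2 and 249.1 TPM in fed and at 237.1, 227.3 and 252.9 TPM in fasted libraries, and the groups overlapped. The log2 fold change was 0.03 (95% interval -0.13 to 0.19; limma, adjusted p = 0.88), and it turned to -0.0016 under median-of-ratios scaling, to -0.04 without fed replicate 2 and to -0.01 without fasted replicate 3, so Spp1 has no stable direction. Spp1-201 carried 93.7% of it and Spp1-205 6.03%.

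Markers of other cells that make osteopontin are given beside it. All 14 macrophage markers were lower in fasted libraries, with 0 passing and 8 at p under 0.05 without adjustment (limma; median -0.39). Their summed level was 158, 184 and 157 TPM in fed and at most 130 TPM in fasted libraries (113, 130 and 118 TPM), the fasted ones all lower. Lyz2, the most abundant, was at 64.6 ± 5.90 against 49.1 ± 6.61 TPM, C1qa at 19.7 ± 1.33 against 13.2 ± 1.71 TPM and Cx3cr1 at 3.69 ± 0.15 against 1.92 ± 0.30 TPM (SD, n = 3 each). Bone and cartilage genes had 3 of 7 members tested, all 3 higher, with 0 passing and 1 at p under 0.05 without adjustment. Their summed level was 16.1 to 16.7 TPM in fed and 17.4 to 23.5 TPM in fasted libraries, and the bone gene Ibsp was at 5.38 ± 0.35 against 7.13 ± 0.71 TPM. Alpl, the most abundant, was at 8.46 ± 0.79 against 8.68 ± 0.41 TPM (log2 fold change 0.03). Bglap, the osteocalcin gene, was at 0.95, 0.40 and 0.56 TPM in fed and at 3.32, 0.48 and 5.49 TPM in fasted libraries, which overlap. Bglap reached the mean of 1 TPM only through its fasted values, so its direction is no support. The part of these cells in the Spp1 values was not tested. Osteopontin receptors, with 10 of 11 tested, were 7 higher and 3 lower, with 0 passing and 0 at p under 0.05 without adjustment (limma; median 0.02). Of these, Itgb1 was at 202.2 ± 3.54 against 205.8 ± 9.77 TPM and Cd44 averaged 104.1 TPM over the 6 libraries. Itgav was at 18.7 ± 1.44 against 16.6 ± 1.75 TPM and Itga4 at 2.43 ± 0.40 against 2.64 ± 0.33 TPM (SD, n = 3 each). The median of the receptors was 0.0001 without fasted replicate 3 and -0.0172 without fed replicate 1.

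**Figure D3:**
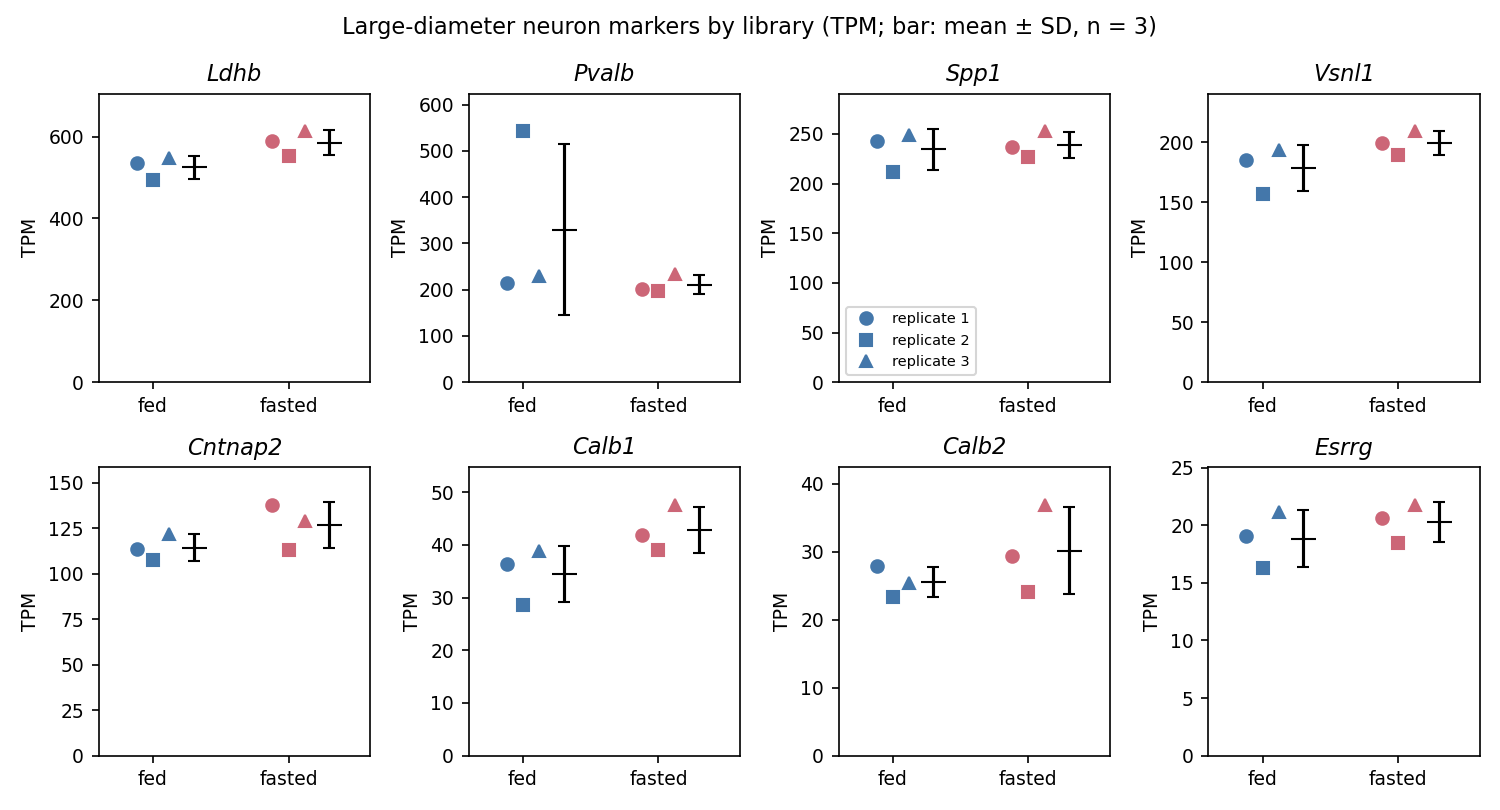
TPM (y axes, starting at 0) of the 8 markers in fed (blue) and fasted (red) libraries, in order of mean level. Symbols are replicates and the black bar is the mean ± SD of 3 libraries. Calb1 and Ldhb do not overlap between the diets, and Pvalb in fed replicate 2 (542.9 TPM) lies away from the rest. The coding transcript Calb1-201 alone does overlap.

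In order of level the markers ran from Ldhb (mean 555.0 TPM over the 6 libraries) through Pvalb (270.3), Spp1 (236.8), Vsnl1 (188.9), Cntnap2 (120.5), Calb1 (38.7) and Calb2 (27.8) to Esrrg (19.6). Ldhb was above Pvalb in 5 of 6 libraries, with overlapping ranges. Neighbours from Spp1 down to Calb1, and Calb2 and Esrrg, did not overlap in range over the libraries. Calb1 was above Calb2 in 6 of 6 libraries although their ranges overlapped. The place of Pvalb depended on fed replicate 2: it was above Spp1 only there, and below it in the other 5 libraries.

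**Figure D4:**
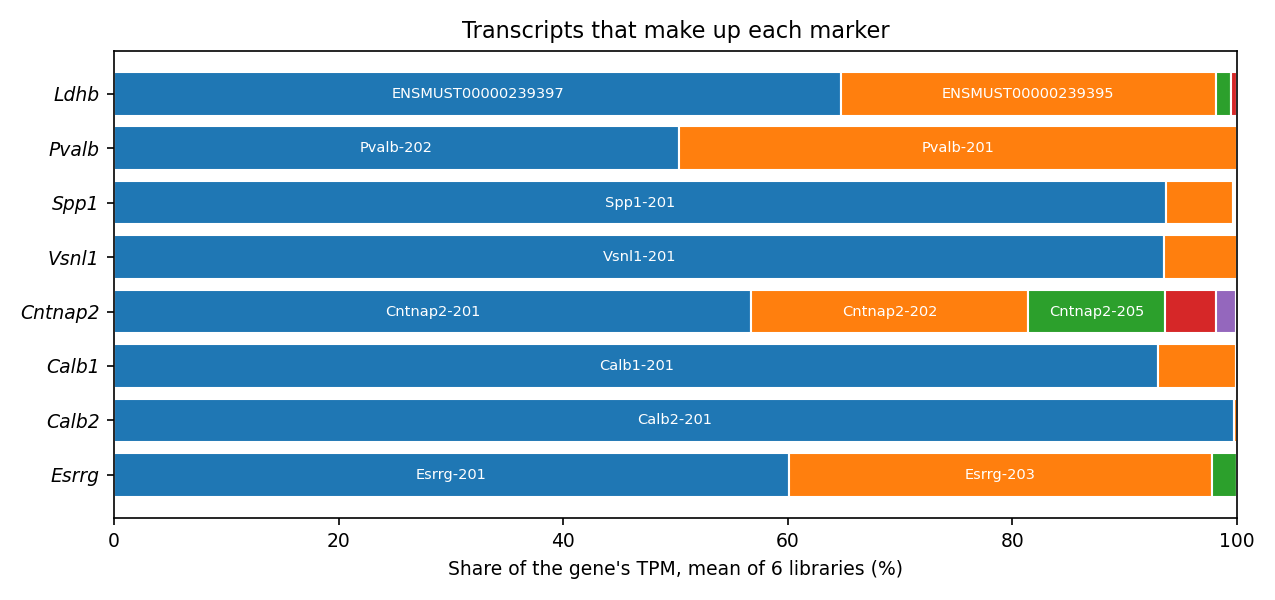
Share of each marker's TPM (x axis, percent of the mean over 6 libraries) carried by each annotated transcript, with transcripts above 9% named. Pvalb, Ldhb, Cntnap2 and Esrrg draw on more than 1 major transcript, and the other 4 markers rest on 1.

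Between the diets, 0 of the 8 markers passed an adjusted p of 0.05, beside 0.00662% of all tested genes (limma). At p under 0.05 without adjustment 2 were higher and 0 lower, Ldhb and Calb1, beside 6.72% of all genes that were higher and 3.22% that were lower (9.94% in all). That count of 2 became 0 without fed replicate 2, fasted replicate 1 or fasted replicate 3, and 4 without fasted replicate 2. The fasted values of these 2 lay above the fed ones without overlap, as they did for 12.7% of all genes, while 5.07% were lower without overlap (17.8% in all). For Calb1 the lack of overlap was seen only with Calb1-202 counted. The coding transcript Calb1-201 overlapped between the diets (log2 fold change 0.13; limma, adjusted p = 0.80). At the level of transcripts 20 of the 32 in the table had a mean of at least 1 TPM, 3 were at 0 in all libraries, and 0 passed, beside 0.0271% of all tested transcripts. Unadjusted, 3 had p under 0.05 (Calb1-202, Vsnl1-201 and Cntnap2-205), all higher, beside 4.49% of all transcripts higher and 2.71% lower (7.2% in all). No overlap between the diets was seen for 3 of the 20 (Calb1-202 and Vsnl1-201 higher, Pvalb-202 lower), beside 14.4% of all transcripts, and 18 of 20 had a fold change above 0, beside 57.5%. Calb1-202, listed at 0 in every fed library, reached the filter only through its fasted values. Its direction and lack of overlap were thus fixed in advance, and its place in these counts is no support. In bulk RNA, fewer cells of a type and less RNA per cell cannot be told apart.

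By direction, 7 of 8 markers were higher in fasted libraries, beside 62.5% of all tested genes, and the median of their log2 fold changes was 0.15 beside 0.03. Without fed replicate 2, 6 of 8 were higher, beside 59.1% of all genes, with a median of 0.09 beside 0.02, and Spp1 was below 0. Without fasted replicate 3 the count was also 6 of 8, beside 59.8%, with a median of 0.09 beside 0.02. Under median-of-ratios scaling, which put 50.9% of all genes higher, 6 of 8 were higher, and the same held when values were scaled to the 16 pan-neuronal genes, which put 29.8% of all genes higher. Relative to 1000 TPM of those pan-neuronal genes, Calb1 was at 2.09, 1.82 and 2.32 TPM with food ad libitum and 2.36, 2.25 and 2.69 TPM with fasting, and Ldhb at 30.8, 31.5 and 32.7 against 33.2, 31.9 and 34.6 TPM. On that scale both overlapped between the diets. The 16 pan-neuronal genes include Prph, which is also in the group of small-diameter neuron genes below.

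**Figure D5:**
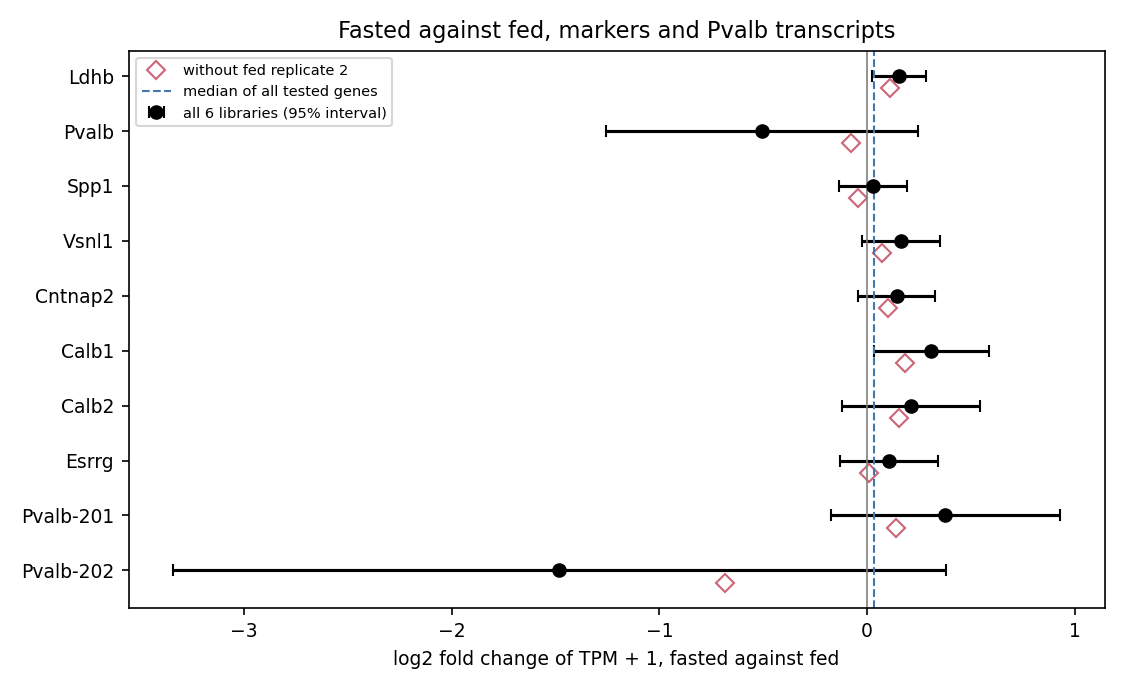
Log2 fold change of TPM + 1, fasted against fed (x axis), for the 8 markers and both Pvalb transcripts. Black points with 95% intervals use all 6 libraries, open diamonds leave out fed replicate 2 and the dashed line is the median of all tested genes (0.03). Leaving out that library brings Pvalb from -0.51 to -0.08.

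The markers other than Pvalb varied together from library to library. Fed replicate 2 had the lowest value of all 6 libraries for 7 of the 8 markers, Pvalb being the highest there in spite of Pvalb-201, and it was the lowest for 33.3% of all tested genes. Fasted replicate 3 had the highest value for 6 of 8, beside 25.8% of all genes. The pattern was not particular to the markers. The sum of 28 other genes of large neurons was also lowest in fed replicate 2 (10145 TPM) and highest in fasted replicate 3 (11988 TPM). The pan-neuronal sum was lowest in fed replicate 2 too, and highest in fasted replicate 1. Over the 21 pairs of the other 7 markers, Pearson r across the 6 libraries ran from 0.62 to 0.986, and without fed replicate 2 from 0.31 to 0.979. With Pvalb the sign turned on that library: r of the 7 markers with Pvalb ran from -0.85 (Vsnl1) to -0.38 (Calb2) over the 6 libraries and from 0.13 (Cntnap2) to 0.96 (Spp1) over the 5 others. Without fasted replicate 3 it ran from -0.95 to -0.56. These r values describe 5 or 6 points that share the same libraries. Of genes outside the set, the 3 most alike were Vps41, Trappc10 and 9330182L06Rik for Calb1 (r down to 0.997), and Elmo1, Ppp2r2a and Fkbp15 for Calb2 (r down to 0.984). For Ldhb they were Duoxa1, Asic1 and Gss (down to 0.992), and for Spp1 Scfd2, Haus3 and Clec16a (down to 0.993). For Cntnap2 they were Nudcd1, Ntan1 and Gm26407 (down to 0.993), for Esrrg Hgsnat, Strbp and Tmem8b (down to 0.995) and for Vsnl1 Iscu, Epb41l3 and Prepl (down to 0.995). These stand beside the median of 0.986 given above for the third most alike gene.

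The markers were set beside other genes of large neurons. Of 28 tested, 23 were higher and 5 lower in fasted libraries, with 0 passing and 2 at p under 0.05 without adjustment (limma; median 0.09). These were Cadps2, a vesicle release gene, at 20.3 ± 1.49 against 23.3 ± 1.84 TPM, and Scn4b, a sodium channel subunit gene, at 190.9 ± 18.3 against 213.6 ± 7.95 TPM (SD, n = 3 each). Nefl, the most abundant, was at 4032 ± 264.2 against 4355 ± 191.3 TPM. The median was 0.06 without fed replicate 2 and 0.04 without fasted replicate 3. The 2 genes higher at p under 0.05 (limma) became 0 in both cases, with 1 lower without fed replicate 2. That count was 5 without fed replicate 3 and 4 without fasted replicate 2. Log2 fold changes were -0.07 for Runx3, 0.10 for Etv1, 0.08 for Ntrk3 and 0.05 for Nefh. Over all 28 genes they ran from -0.08 to 0.19.

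Small-diameter neurons, most of which carry pain, itch and temperature, were compared through 21 genes. Of these 14 were higher and 7 lower, with 0 passing and 1 in each direction at p under 0.05 without adjustment (limma; median 0.04). The cold receptor gene Trpm8 was at 22.2 ± 2.01 against 26.0 ± 0.77 TPM, and Nppb, of itch neurons, at 21.2 ± 1.05 against 18.1 ± 2.44 TPM (SD, n = 3 each). Calca, the peptide gene CGRP and the most abundant, was at 3035 ± 419.5 against 2715 ± 92.6 TPM. Without fed replicate 2 the group had 10 genes higher and 11 lower, with a median of -0.014, and without fasted replicate 2 the same counts, with a median of -0.003. Among 16 pan-neuronal genes 15 were higher and 1 lower, with 0 passing and 1 at p under 0.05 without adjustment (median 0.07). That gene was Eno2, the neuronal enolase gene, at 573.7 ± 53.0 against 646.7 ± 11.9 TPM. Uchl1, the most abundant, was at 3908 ± 175.7 against 4179 ± 64.7 TPM and Rtn1 at 764.5 ± 76.6 against 841.4 ± 11.2 TPM (SD, n = 3 each). Without fed replicate 2 the median of the group was 0.04. The difference between large and small neurons was not tested.

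Among other cell types, all 18 muscle genes were lower in fasted libraries, with 0 passing and 1 at p under 0.05 without adjustment (limma). Their median was -1.82, and it was -0.72 without fed replicate 2 and -1.20 without fasted replicate 1. Acta1, the most abundant, was at 58.9, 936.2 and 80.6 TPM in fed and at 14.5, 60.1 and 66.1 TPM in fasted libraries. This actin gene had means of 358.6 TPM (fed) and 46.9 TPM (fasted). Mb, of myoglobin, was at 23.5 ± 24.5 against 4.10 ± 1.28 TPM, and the sarcomere gene Tcap at 19.8 ± 19.4 against 5.35 ± 2.37 TPM (SD, n = 3 each). The creatine kinase gene Ckm was at 490.0 TPM in fed replicate 2 and at 9.07 to 52.2 TPM in the other 5 libraries. Without fed replicate 1 the number of muscle genes at p under 0.05 without adjustment became 15.

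All 5 erythroid genes were higher, with 0 passing and 5 at p under 0.05 without adjustment (limma; median 0.80). Without fasted replicate 3 the 5 stayed higher and under 0.05 without adjustment, with a median of 0.53. Of the globin genes, Hbb-bs was at 602.0 ± 64.0 against 977.1 ± 297.2 TPM, Hba-a2 at 524.7 ± 67.0 against 956.1 ± 309.5 TPM and Hba-a1 at 187.7 ± 11.9 against 339.3 ± 119.0 TPM (SD, n = 3 each). The globin genes are near-identical copies, so the split of reads among them is uncertain.

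Endothelial genes were lower in 8 of 8, with 6 at p under 0.05 without adjustment. Ly6c1, the most abundant, was at 68.4 ± 12.5 against 51.6 ± 2.92 TPM, Emcn at 14.4 ± 1.22 against 11.9 ± 0.28 TPM and Sox17 at 7.45 ± 0.40 against 5.67 ± 0.14 TPM (SD, n = 3 each). Glial genes had no common direction. Satellite glial genes were higher in 6 of 10 and Schwann cell genes in 5 of 10, and these counts became 3 of 10 and 2 of 10 without fasted replicate 3. The medians were 0.0083 and -0.006, against 0.0469 and 0.0084 without fed replicate 2 and -0.0102 and -0.053 without fasted replicate 3.

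Of the satellite glial genes, Apoe was at 4742 ± 320.6 against 4560 ± 142.4 TPM, Fabp7 at 578.6 ± 37.2 against 514.9 ± 51.7 TPM and S100b at 826.9 ± 19.0 against 872.3 ± 28.6 TPM (SD, n = 3 each). Of the Schwann cell genes, Drp2 was at 74.98 ± 5.28 against 64.6 ± 2.98 TPM and Ncmap at 79.7 ± 4.88 against 71.3 ± 3.50 TPM. Fibroblast genes were higher in 5 of 8, with Apod at 1109 ± 33.5 against 976.9 ± 51.0 TPM and Lum at 31.9 ± 0.67 against 37.1 ± 0.86 TPM. None of the genes of these groups passed.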

How the data were processed

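RNA of neuron-enriched DRG cells was measured in 6 libraries made with a stranded poly(A) kit, per the labels' protocols. Per the labels, digestion used papain, Dispase II at 1 mg/ml and Collagenase Type II at 2.5 mg/ml, followed by a 15% BSA gradient; killing is given at 24 hours, from an unnamed time point. The deposited values are TPM per transcript (140992 transcripts, each library summing to 1000000), made by the authors. Salmon 1.6.0, DESeq2 1.34.0, Trim Galore 0.6.6 and FastQC 0.11.9 are listed with GRCm38 and mm10, per the submitters' processing notes; roles and annotation release are not given in the sources used here. TPM are shares, so a rise of some transcripts lowers others, and depth is lost.

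TPM was summed per gene symbol, and features with a mean of at least 1 TPM were kept (15097 genes, 33197 transcripts). Fasted and fed libraries were compared on log2(TPM + 1) with limma 3.58.1 in R 4.3.3 (group as the only term, intensity trend, two-sided, Benjamini-Hochberg over all features, threshold 0.05). The fit was also run on simulated data with changes larger than most markers showed. That run does not speak to changes of the markers' size. Transcript positions are from GENCODE M21, in which 30 of the 32 marker transcripts were found, and start regions from RefSeq (GRCm38.p6), which held 6 of the 8 markers. No gene overlapping a marker, of 33 in the annotation, exceeded 0.292 TPM. Plots used Python 3.11.15 and matplotlib 3.10.9.

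The markers and the 17 context lists, which share 5 genes, were chosen with earlier results of these data known. Named genes are the markers, their transcripts, 10 genes by name, and from each list the most abundant gene and the 2 with the smallest p; Esrrb, Kcna1, Kcna2 and Slc17a7 were added later, with their values known. For each marker the 3 genes of highest Pearson r were also named. Some genes that the rule names are not reported here.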

Additional observations from a re-analysis of the deposited data

How the results depend on the processing

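Over 20 alternatives (pseudocounts, filters, scalings, empirical Bayes settings, array weights, replicate block, each library left out) 0 markers passed, and 7 of the 8 kept their direction. Spp1 turned to -0.0016 (median-of-ratios), -0.0007 (TMM-type), -0.0023 (quantile), -0.0028 (without mitochondrial genes), -0.0037 (also without muscle and erythroid genes), -0.0541 (pan-neuronal scaling), -0.0006 (array weights), and to -0.0435 and -0.0111 without fed replicate 2 or fasted replicate 3, in a range of -0.0435 to 0.0751 over the left-out libraries. The same range for Pvalb was -0.75 to -0.08.

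Of 20 transcripts, 0 passed over 10 alternatives. Spp1-201 turned to -0.0124 (median-of-ratios). With each library left out in turn, log2 fold changes crossed 0 for Spp1-201 (-0.0492 to 0.0544, negative without fed replicate 2 or fasted replicate 3), Cntnap2-203 (-0.3672 to 0.3587, negative without replicate 1 of either diet), Cntnap2-206 (-0.0281 to 0.7555, negative without fasted replicate 1), Ldhb-204 (-0.1059 to 0.2178, negative without fed replicate 1 or fasted replicate 3), Calb1-201 (-0.0028 to 0.212, negative without fed replicate 2) and Vsnl1-202 (-0.899 to 0.056, positive without fasted replicate 2).

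Over all genes 1 passed, 2 with a pseudocount of 0.1 or 0.5, 0 without a filter, and 1 to 6 with a library left out (6 without fed replicate 3). Of 8 shares, 2 did not overlap between diets (Pvalb-202 and Calb1-201), and 2 to 4 with a library left out (4 without fed replicate 3). Shares of other genes were not computed, so these counts have no background and are no result about the markers. That of Calb1-201 mirrors Calb1-202, listed at 0 in every fed library. Why the counts changed was not tested.

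With the replicate block, 0 markers passed. Deviations of same-numbered libraries had r of 0.093, 0.114 and 0.066, each the highest for its library, and no label ties the numbers to an animal or batch, so the libraries were not treated as paired. TPM keep no depth, so the precision of low values is unknown.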
